A study of Mus musculus with 20 samples.

Results

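The 35 genes described here encode lysosomal enzymes and membrane proteins, together with Tfeb, a transcription factor that controls such genes. They are the rows of a table of 21705 genes that carry the symbols of a fixed list. No measured value enters that rule, though the list itself was drawn up with earlier results of these data known. All 35 symbols were present, and all 35 passed the filter on low values that left 13548 genes for testing. By role, the list holds 6 membrane proteins, 10 proteases, 11 enzymes that act on sugar chains or their sulfates, 7 proteins of lipid breakdown and the 1 regulator Tfeb.

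Sequencing of poly(A) RNA from the ventricles of male mice on the C57Bl/J6 background gave 20 libraries, with 4 groups of 5. The groups cross 2 genotypes, Acsl1H-/- (knockout) and littermate Acsl1flox/flox (control), with 2 injections, rapamycin at 1 mg/kg or vehicle alone, given every day for 2 weeks. Both genotypes received tamoxifen at 75 mg/kg on 4 days at an age of 6 to 8 weeks, so the controls carried the floxed allele and the tamoxifen as well, and hearts were taken 2 weeks later. Which promoter drove Cre is not given in the sources used here, so the heart cells that lost Acsl1 are not specified. The question the design sets is what loss of Acsl1, the enzyme that activates long-chain fatty acids for oxidation in the heart, and inhibition of mTORC1 by rapamycin, each or together, do to heart gene expression. The submitters state 5 biological replicates per condition, so p-values measure the spread between hearts only as far as that statement holds.

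Lysosomes are acidic compartments in which hydrolases break down proteins, sugar chains and lipids delivered by endocytosis and autophagy. Soluble hydrolases mature there, while heavily glycosylated membrane proteins line the compartment and channels and transporters move ions and products across its membrane. Many lysosomal genes carry a short promoter element, built on the core CACGTG, that is bound by TFEB and its relatives, and mTORC1 on the lysosomal surface phosphorylates TFEB and holds it in the cytoplasm. In the heart, deficiency of the acid glucosidase Gaa or of Lamp2 causes cardiomyopathy with stored glycogen and autophagic material.

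The deposited values are normalized expression values, scaled by library to a common upper quartile. Depth was estimated from the step between low values, at 11.5 to 21.1 M reads per library. Acsl1 checked the genotype labels: its values lay at 6373 to 13431 in control hearts and 740.5 to 1682 in knockout hearts under vehicle, and at 10518 to 16661 and 631 to 1950 under rapamycin. The genotypes did not overlap, and the exact two-sided permutation p was 0.00794 in each drug arm, the smallest that 5 against 5 allows. Cardiomyocyte markers were above 0 in every library. The control vehicle libraries numbered 1 and 3 lay far from all others on principal component 1 (33.7% of the variance). Their score for long against short transcripts was -1.04 and -1.17 on the log2 scale, while the other 18 libraries lay between -0.43 and 0.55. The main results that rest on these libraries are therefore given with and without them.

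The list spanned a wide range of levels, led by Ctsd, the aspartic protease cathepsin D, and Psap, the precursor of the saposins that help enzymes reach their lipid substrates. On the scale of normalized value per kb of transcript, Ctsd averaged 20063 ± 2744 and Psap 18952 ± 1534 (SD over 20 libraries). Lamp1, the most abundant lysosomal membrane glycoprotein here, followed at 7515 ± 724 per kb, and Ctsb, the cysteine protease cathepsin B, at 3660 ± 339 per kb. The lowest levels per kb belonged to Galc, which removes galactose from galactosylceramide (70.1), Ctsk, a collagen-degrading cathepsin of osteoclasts and fibroblasts (69.7), Sgsh, a heparan sulfate sulfatase (51.3), and Gla, the alpha-galactosidase (29.2). Ctsd stood 687-fold above Gla. Of 34 neighbouring pairs in this order, 32 overlapped within their spread over libraries, and a gap appeared only between Psap and Lamp1 and between Lamp1 and Ctsb. Per kb, 30 of the 35 members lay above 50% of the genes tested and 11 above 90%. Psap, Ctsd, Ctsb and Lamp1 together held 69.0% of the summed value of the list. The coefficient of variation within groups ran from 5.21% for Tpp1, tripeptidyl peptidase, to 22.7% for Naglu, a heparan sulfate glucosaminidase, with a median of 11.8%.

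**Figure D1:**
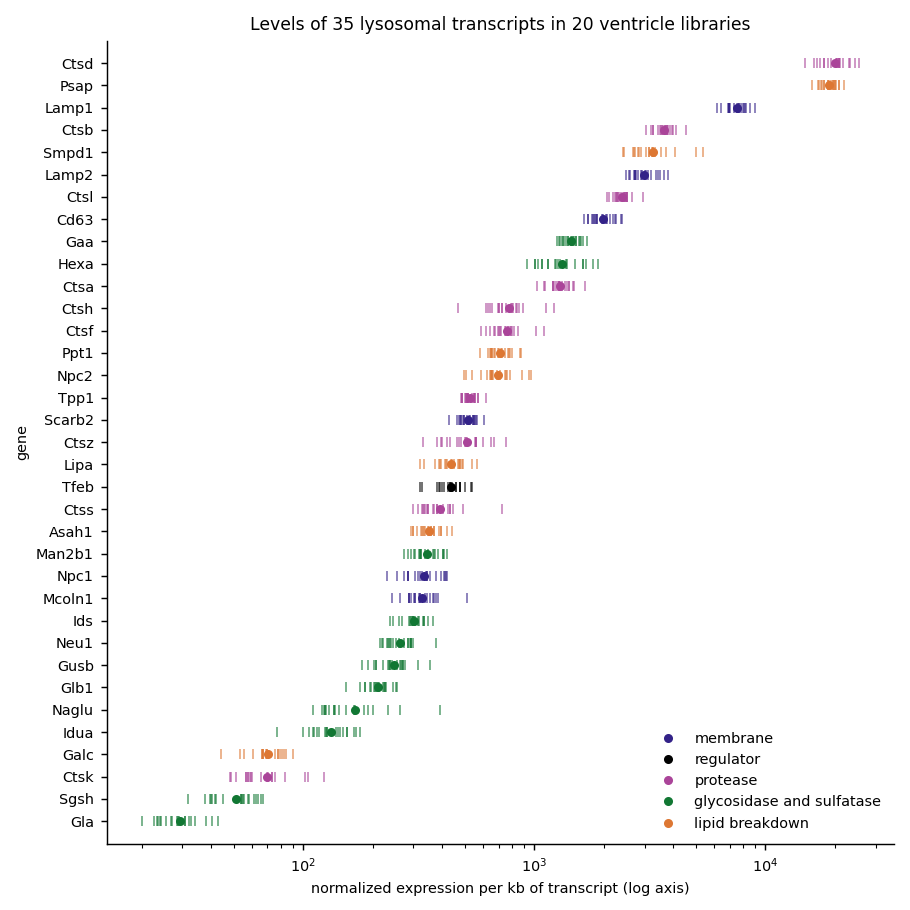
Levels of the 35 members per kb of transcript, on a log axis. Each tick is 1 of 20 libraries and each dot the mean, coloured by role. Ctsd and Psap sit near 20063 and 18952 at the top and Gla at 29.2 at the bottom, and most neighbours overlap.

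Promoter sequence bears on how this list is regulated, so it was searched for the element named above. RefSeq windows of assembly GRCm38.p6, from 250 bases before to 50 after each gene's start, were found for 31 of the 35 members, all but Asah1, Ctsb, Ctsh and Npc1. The core CACGTG, searched on both strands, occurred in 11 of the 31 (35.5%) and in 8.09% of 27025 genes with such windows. That background was not limited to the 13548 genes tested, so it is not matched to the members in expression. The longer TCACGTG, which contains the core, occurred in 9 members (29.0%, against 4.29% of all genes), and TCACGTGA, which contains both, in 4 (12.9%, against 1.12%). The 4 with TCACGTGA were Mcoln1, Ctsa, Ctsd and Gla. They are printed below with Naglu, the member with the largest measured differences between groups, whose window holds TCACGTG. Each stretch is read 5′ to 3′ on the gene's strand, and capitals mark the motif.
Mcoln1: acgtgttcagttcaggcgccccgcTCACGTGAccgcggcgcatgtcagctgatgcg
Ctsa: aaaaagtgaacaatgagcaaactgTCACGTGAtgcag
Ctsd: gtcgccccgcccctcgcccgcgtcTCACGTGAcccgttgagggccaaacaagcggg
Gla: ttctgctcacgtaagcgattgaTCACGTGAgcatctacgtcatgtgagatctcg
Naglu: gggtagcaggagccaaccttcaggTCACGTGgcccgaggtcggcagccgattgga

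In GRCm38.p6 these stretches are chr8:3500449-3500504 on the plus strand for Mcoln1, chr2:164833736-164833772 on the plus strand for Ctsa, and chr7:142387895-142387950 on the minus strand for Ctsd. That of Gla is chrX:134601202-134601255 on the minus strand, and that of Naglu chr11:101069996-101070050 on the plus strand. The motif begins 46 bases before the start of Mcoln1 (position -46), at -13 in Ctsa, -99 in Ctsd, -228 in Gla and -74 in Naglu. The other 6 members with the core were Ctsf, Ctsl, Gaa, Glb1, Lamp1 and Sgsh. A match describes the letters of the window and is no evidence of binding.

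Knockout was first compared with control under vehicle. No member passed the threshold of an adjusted p under 0.05 (limma, Benjamini-Hochberg over 13548 genes), where 0.244% of all genes did. At an unadjusted p under 0.05, 9 members were lower in knockout hearts and 2 were higher, beside a background of 12.1% and 19.8% of all genes in those directions. Of the 35 fitted changes 25 were below 0, and their median was -0.11 on the log2(value + 1) scale, where the median of all genes was 0.07. The 95% intervals of 34 members lay within 1 log2 unit of no change and those of 17 within 0.5. For no member were the 2 groups fully separated, beside 1.45% of all genes with higher and 0.871% with lower knockout values throughout. In bulk tissue, fewer cells of a type and less RNA per cell cannot be told apart.

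Among the membrane proteins, 5 of 6 had fitted changes below 0 in this comparison, from -0.39 for Mcoln1 to 0.09 for the tetraspanin Cd63. Mcoln1 (Entrez 94178), the calcium-releasing channel mucolipin, read 788, 729.8, 1060.3, 632 and 631 in control vehicle libraries 1 to 5. It read 591, 502, 541, 593 and 663 in the knockout vehicle libraries. Control library 3 was the highest, and knockout library 5 lay above the lowest pair of controls. The fitted change was -0.39 ± 0.13 (SE, adjusted p = 0.0993) and ran from -0.09 to -0.82 within the 4 library pools that the labels name. A pool held as few as 1 library of a group, so here and below pool values are descriptions and not replicates. Control vehicle 1 was in pool 1, and control vehicle 3 was the only control vehicle library of pool 3. The Mcoln1 change was -0.20 without control vehicle 1 and 3. Lamp1 averaged 16935 ± 1301 in control and 16006 ± 2191 in knockout hearts, and Lamp2, the membrane protein lost in Danon disease, 6871 ± 991 and 6085 ± 357 (SD, n = 5). Their changes of -0.09 and -0.17 were -0.02 and -0.03 without control vehicle 1 and 3.

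Tfeb (Entrez 21425) read 1111, 1015, 1233, 924 and 1007 in the control vehicle hearts and 763, 744, 879, 899 and 949.6 in the knockout vehicle hearts. Only knockout library 5 lay above a control library, library 4. The fitted change was -0.32 ± 0.10 (adjusted p = 0.0966), below 0 in each of the 4 pools (-0.16 to -0.45), and -0.22 without control vehicle 1 and 3.

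Of the 10 proteases 6 had changes below 0 and 4 above. Ctsh (Entrez 13036), an aminopeptidase of the cathepsin family, had the lowest change, with control values of 1815, 1363, 1965, 1288 and 1176 and knockout values of 1059.9, 1016, 759, 1216 and 1449.8. The groups overlapped, since knockout library 5 lay above 3 controls. The change of Ctsh was -0.47 ± 0.16 (adjusted p = 0.101), and it was 0.05 in pool 4 and -0.42 to -0.90 in the other 3. Without control vehicle 1 and 3 it was -0.24.

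Ctsf (Entrez 56464), a cysteine cathepsin, read 2016, 1679, 2183, 1493 and 1483 in control and 1383, 1271, 1334, 1159.5 and 1576 in knockout hearts. Ctsa (Entrez 19025), the carboxypeptidase that shields neuraminidase and galactosidase in a complex, read 4597, 4560.3, 5112, 3966 and 3974 in control and 3709.8, 3396, 3159, 3442 and 4359.6 in knockout hearts. In both genes, knockout library 5 was the only knockout library above any control. The fitted changes were -0.39 ± 0.12 for Ctsf (adjusted p = 0.0900) and -0.30 ± 0.10 for Ctsa (adjusted p = 0.0966), and each became -0.21 without control vehicle 1 and 3. Within the pools Ctsf ran from -0.33 to -0.59 and Ctsa from -0.20 to -0.46.

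Ctss, the elastin-degrading cathepsin of macrophages and other antigen-presenting cells, had the opposite sign, at 477 ± 47.0 in control and 635 ± 199 in knockout hearts and a change of 0.37 ± 0.16 (adjusted p = 0.130). Knockout library 4 alone read 978, with the others at 455 to 587. The 12 macrophage markers, all above 0, summed to 12881 to 14579 in the control vehicle hearts and to 12796 to 22344 in the knockout vehicle hearts, and library 4 held the highest sum. Changes of these markers ran from -0.12 for Cd68 to 0.90 for Cx3cr1. C1qa, C1qb and C1qc were also below 0, while Lyz2, the largest marker, averaged 4314 in control and 5704 in knockout hearts. Their part in the result was not tested. Leaving out that library gave 0.20, the lowest of the leave-one-out values, while leaving out control vehicle 1 and 3 gave 0.36. Ctsk averaged 97.7 ± 17.7 and 133 ± 39.3, with a change of 0.41 ± 0.21 (0.44 without control vehicle 1 and 3). Fibroblasts, which express Ctsk, had summed markers of 63670 to 81048 in control and 89513 to 150827 in knockout hearts under vehicle, for 10 of 10 markers above 0, and their part was not tested either.

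The enzymes of sugar chains gave 8 changes below 0 and 3 above. Naglu (Entrez 27419) read 596, 669, 1005, 428 and 486 in control hearts and 331, 283, 366, 390.4 and 471 in knockout hearts. Control library 3 was the highest of all 20, and knockout library 5 reached above control library 4. The change of Naglu was -0.74 ± 0.20 with a 95% interval of -1.15 to -0.34 and an adjusted p of 0.0799, the smallest of the list in this comparison. It lay below 0 in all 4 pools (-0.32 to -1.27), with control vehicle 3 as the only control of pool 3. Without control vehicle 1 and 3 the change of Naglu was -0.51.

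Neu1 (Entrez 18010), the lysosomal sialidase, read 723, 639.5, 926, 742 and 726 in control and 548, 582, 590.5, 608 and 675 in knockout hearts. Knockout library 5 was above control library 2, the only crossing. The change was -0.32 ± 0.10 (adjusted p = 0.0974), -0.14 to -0.55 within pools and -0.23 without control vehicle 1 and 3. Gaa, the glucosidase that frees glucose from glycogen in lysosomes, averaged 5127 ± 646 in control and 4753 ± 257 in knockout hearts, with a change of -0.10 ± 0.09. Hexa, the alpha subunit of hexosaminidase, averaged 2709 ± 699 and 2386 ± 518 (-0.17 ± 0.18). Without control vehicle 1 and 3, Gaa was at -0.22 ± 0.09 (adjusted p = 0.689) and Hexa at 0.09 ± 0.18, with its sign turned.

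Among proteins of lipid breakdown, Smpd1 (Entrez 20597), the acid sphingomyelinase, read 12972, 7832, 12033, 8945 and 8006 in control and 8518, 6456, 5859.6, 6801 and 9756 in knockout hearts. The control libraries with the highest values were 1 and 3, and the groups overlapped. The change was -0.41 ± 0.15 (adjusted p = 0.109), and without those libraries it was -0.17. Psap (Entrez 19156) read 55353, 53095, 57752, 53776 and 50829 in control and 47365, 45025, 42049.7, 44793 and 51719.7 in knockout hearts. Only knockout library 5 reached the control range, and the change was -0.23 ± 0.09 (adjusted p = 0.109), -0.18 to -0.31 within pools and -0.19 without control vehicle 1 and 3. Galc (Entrez 14420) had the other sign, with 304, 231, 169, 289 and 255 in control and 323, 316, 256, 298 and 346 in knockout hearts. Control library 3 was the lowest, and the change of 0.32 ± 0.14 (adjusted p = 0.132) was 0.25 without control vehicle 1 and 3.

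How many members passed in this comparison depended on single libraries. Without control vehicle 4 Naglu passed, 1 member in all. Without control vehicle 5 there were 8, Mcoln1, Tfeb, Ctsa, Ctsf, Ctsh, Naglu, Neu1 and Smpd1, all lower in knockout hearts. Without knockout vehicle 5 there were 9, those 8 and Psap. The count over all 13548 genes moved with these, from 33 to 343, 3089 and 2565, so the rise was not confined to the list. Leaving out both control vehicle 1 and 3 gave no member called, with 3 lower and 0 higher at an unadjusted p under 0.05, beside 2.47% and 4.28% of all genes in that fit. The median was then -0.07, beside 0.03 for all genes.

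**Figure D2:**
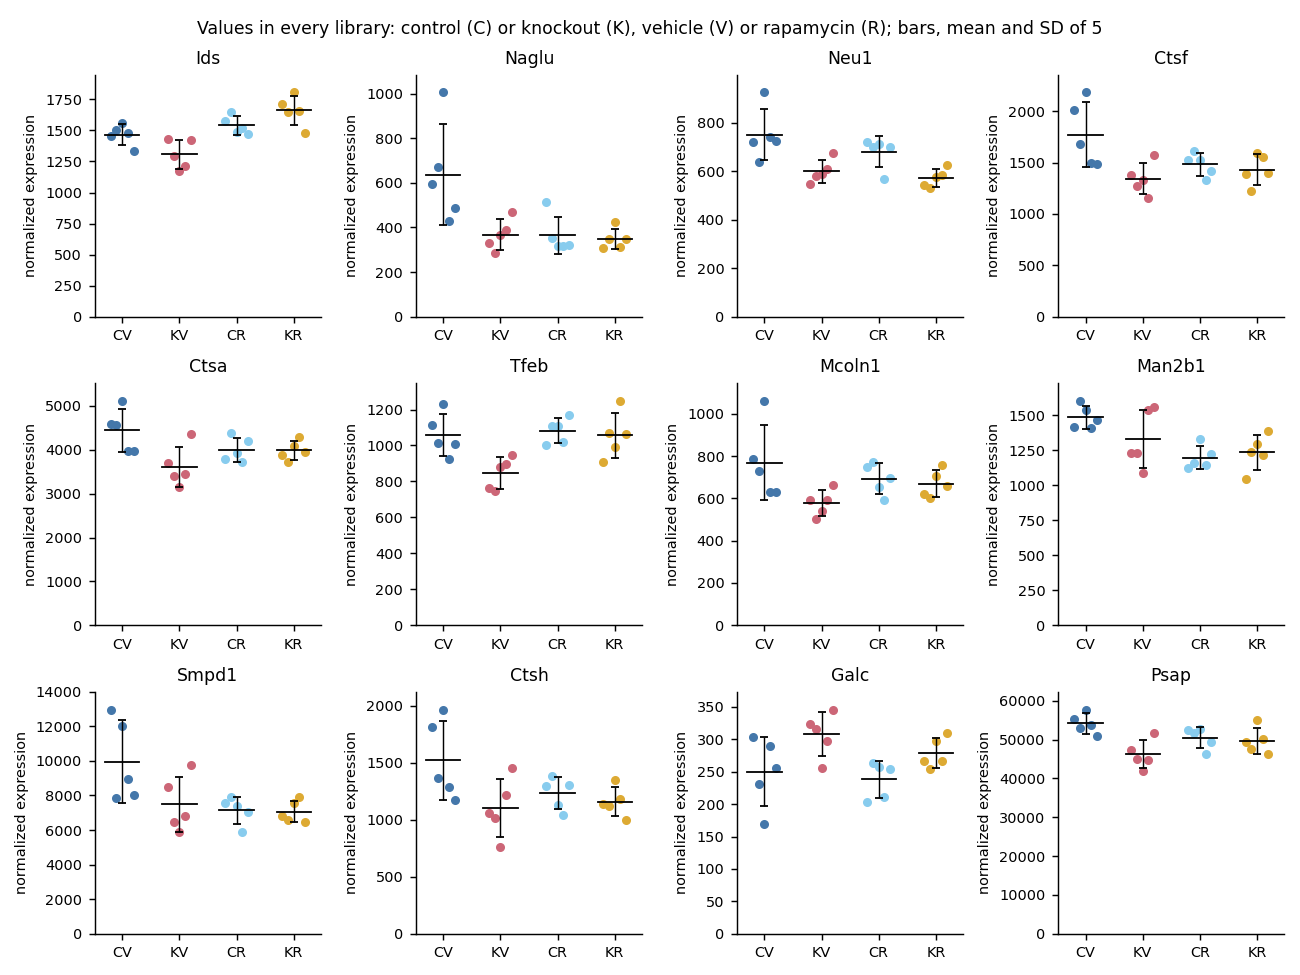
Normalized expression values of the 12 members with the smallest unadjusted p in any comparison. Each panel is 1 gene with its axis from 0, points are the 5 libraries of each group, and bars are the group mean and SD. Groups overlap in most panels. In Ids the knockout rapamycin points, from 1483 to 1806, lie above the knockout vehicle points, from 1175 to 1434.

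Knockout was then compared with control under rapamycin, in the other 10 libraries. No member was called (limma), where 0.0221% of all genes were, and the smallest adjusted p was 0.9996. At an unadjusted p under 0.05, 1 member was lower and 0 were higher, beside 1.72% and 1.25% of all genes. Changes below 0 numbered 17 and those above 0 numbered 18, with a median of 0.02 beside -0.02 for all genes. The 95% intervals of all 35 members lay within 1 log2 unit of no change, and those of 30 within 0.5. Groups were fully separated for no member, beside 0.332% of all genes in the higher and 0.546% in the lower direction.

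Neu1 was the member at an unadjusted p under 0.05. It read 721, 701, 715, 569 and 701 in control rapamycin hearts and 543, 531, 577, 586 and 625 in knockout rapamycin hearts. Control library 4 was lower than its group and lay among the knockout values, so the groups overlapped. The change was -0.25 ± 0.10 (adjusted p = 0.9996), with -0.21 to -0.44 within the 4 pools.

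Values under rapamycin of other members given above follow. Mcoln1 read 749.5, 774, 655, 593 and 696 in control rapamycin and 623, 603, 706, 758 and 658 in knockout rapamycin hearts, with a change of -0.05 ± 0.13. Smpd1 read 7543, 7909, 7368, 5889 and 7018 in control rapamycin and 6840.1, 6571, 7548, 7889.7 and 6493 in knockout rapamycin hearts (-0.01 ± 0.15). In both genes the genotypes overlapped throughout. Galc read 204, 264, 257, 212 and 254 in control and 267, 254, 297, 266 and 310.2 in knockout hearts. Its groups overlapped, with 3 control libraries above the lowest knockout value, and its change was 0.23 ± 0.14. Psap read 52606, 51726, 52738, 46360.5 and 49315 in control and 49518, 47699, 54942, 50088 and 46197 in knockout hearts, a change of -0.03 ± 0.09.

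Among the proteases under rapamycin, Ctsf read 1525, 1612, 1525, 1329 and 1419.9 in control and 1388, 1222, 1591, 1557 and 1402 in knockout hearts (-0.05 ± 0.12). Ctsh read 1293, 1383, 1132, 1038 and 1308 in control and 1139, 1122, 1347, 1177 and 1000 in knockout hearts (-0.09 ± 0.16). Ctsa read 3790.5, 4372, 3937, 3721 and 4196 in control and 3872, 3711, 4091, 4291 and 3960.2 in knockout hearts (-0.01 ± 0.10). The genotypes overlapped in all 3 of these genes, and no control rapamycin library stood as high for Ctsf or Ctsh as control vehicle 1 and 3.

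Rapamycin was next compared with vehicle in control hearts, a comparison that shares the control vehicle libraries with the first. No member and no other gene was called (0% of all genes, limma). At an unadjusted p under 0.05, 3 members were lower under rapamycin and 0 higher, beside 4.32% and 10.6% of all genes, and 2024 genes in all. Of the members, 25 had changes below 0 and 10 above, with a median of -0.07 beside 0.07 for all genes. Without control vehicle 1 and 3, 21 were below 0 and 14 above, with a median of -0.02 beside 0.04 for all genes. With the score for long against short transcripts as a term, these were 18 and 17, with a median of -0.001 beside 0.05.

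Man2b1 (Entrez 17159), the alpha-mannosidase of glycoprotein breakdown, read 1415, 1601, 1536, 1405 and 1464 under vehicle and 1123, 1160.0, 1331, 1147 and 1224 under rapamycin in control hearts. These groups did not overlap, as for 0.59% of all genes in that direction, and it was the 1 such member. In the higher direction there was 0, beside 0.871% of all genes. The change was -0.31 ± 0.10 (adjusted p = 0.328), between -0.21 and -0.47 in the 4 pools and -0.32 without control vehicle 1 and 3. In knockout hearts Man2b1 read 1226, 1233, 1085, 1536 and 1557 under vehicle and 1043, 1234, 1292, 1213 and 1389.8 under rapamycin, which overlapped (-0.10 ± 0.10).

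Naglu read 512, 350.4, 319, 318 and 322 in the control rapamycin hearts, where library 1 stood above the rest, and 428 to 1005 in the control vehicle hearts above. Its change of -0.76 ± 0.20 (adjusted p = 0.326) was 0.02 in pool 1 and -0.59 to -1.65 in the other 3, and -0.53 without control vehicle 1 and 3. In the knockout rapamycin hearts Naglu read 307, 349, 424, 314 and 349, all within the 283 to 471 of the knockout vehicle hearts. Smpd1 was the third member, with a change of -0.45 ± 0.15 (adjusted p = 0.328) that was -0.21 without those control vehicle libraries. The Tfeb change was 0.04 ± 0.10, with control rapamycin values of 1005, 1106, 1108, 1021 and 1171.

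In knockout hearts, rapamycin was compared with vehicle in 10 libraries that include the knockout vehicle hearts of the first comparison. No member was called (limma), where 0.00738% of all genes were. At an unadjusted p under 0.05, 3 members were higher and 1 lower, beside 2.3% and 3.42% of all genes. Changes above 0 numbered 19 and those below 0 numbered 16, with a median of 0.09 beside -0.02 for all genes. All 6 membrane proteins and Tfeb had changes above 0, from 0.12 for Cd63 to 0.21 for Mcoln1 among the membrane proteins. Of all genes 46.6% were above 0, and 1 of the 6 membrane proteins had an unadjusted p under 0.05. Other roles were mixed, with changes below 0 for 7 of 11 enzymes of sugar chains, 4 of 7 proteins of lipid breakdown and 5 of 10 proteases.

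Ids (Entrez 15931), the sulfatase that starts the breakdown of heparan and dermatan sulfate, had the smallest unadjusted p of the list in any comparison, 0.000448. It read 1434, 1292, 1175, 1217 and 1422 in the knockout vehicle hearts and 1716, 1646, 1806, 1655 and 1483 in the knockout rapamycin hearts. Every rapamycin value lay above every vehicle value, as for 0.62% of all genes in that direction. No member was separated in the lower direction, as 1.23% of all genes were. The change was 0.35 ± 0.08 with a 95% interval of 0.17 to 0.52 and an adjusted p of 0.184, and it lay above 0 in all 4 pools (0.20 to 0.48). In control hearts Ids read 1453, 1505, 1561, 1477 and 1334 under vehicle and 1574, 1652, 1490.5, 1517 and 1469.8 under rapamycin. Those groups overlapped, and their difference was 0.07 ± 0.08. The change in knockout hearts passed the threshold in 2 of the alternative fits, with adjusted p = 0.0424 with robust array weights and 0.0104 with the transcript length score as a term. Those fits called 0.428% and 1.72% of all genes, more than the 0.00738% above.

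Tfeb read 911, 1068, 989, 1247 and 1066 in the knockout rapamycin hearts, beside 744 to 949.6 in the knockout vehicle hearts. Library 1 alone overlapped with the vehicle hearts. The change was 0.32 ± 0.10 (adjusted p = 0.462), from 0.11 to 0.48 in the 4 pools. Scarb2, the receptor that carries glucocerebrosidase to lysosomes, averaged 2303 ± 186 and 2609 ± 163 (0.18 ± 0.08, adjusted p = 0.841). Ctsk averaged 133 ± 39.3 and 96.2 ± 32.6, with a change of -0.47 ± 0.21 (adjusted p = 0.825), and it was 0.08 in pool 4 and -0.69 to -0.86 in the others.

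**Figure D3:**
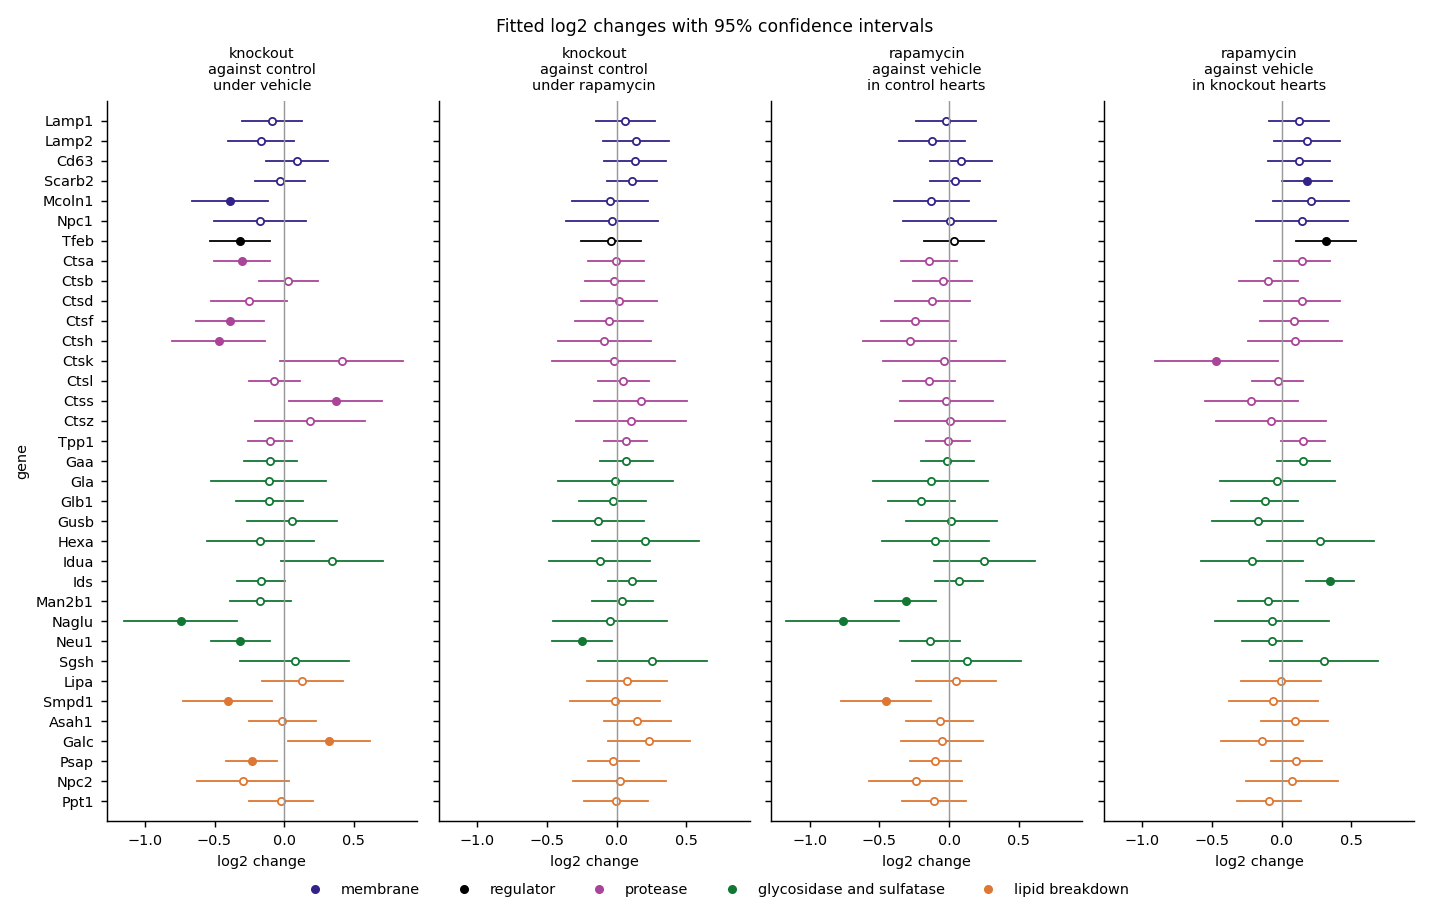
Fitted log2 changes of the 35 members in the 4 simple comparisons, with 95% intervals. Filled circles have an unadjusted p under 0.05 and open circles do not, and no change passed the adjusted threshold. Naglu lies farthest from 0, at -0.74 and -0.76 in the panels that use the control vehicle libraries.

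The genotype by drug interaction tests whether the knockout difference was the same in both drug arms. It called no gene (0% of all genes, limma), while 1124 genes had an unadjusted p under 0.05. Of the members 3 had an unadjusted p under 0.05, all with a knockout difference that was higher under rapamycin than under vehicle, beside 2.22% of all genes in that direction and 6.07% in the other. Naglu gave 0.70 ± 0.28, Ctsa 0.29 ± 0.14 and Ids 0.27 ± 0.12, each with an adjusted p of 0.523. The interaction was above 0 for 27 of 35 members, with a median of 0.16 beside -0.09 for all genes. Without control vehicle 1 and 3 it was above 0 for 23, with a median of 0.12, and Naglu gave 0.47, Ctsa 0.21 and Ids 0.25. The intervals are wide, with only 12 of 35 within 0.5 log2 units of no interaction, so equal and unequal knockout differences could not be told apart for most members.

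Averaged over both drug arms, the genotype effect called 0.443% of all genes and no member (limma). At an unadjusted p under 0.05, 7 members were lower in knockout hearts and 2 higher, beside 8.73% and 10.4% of all genes. Neu1 had the smallest adjusted p, 0.0919, with a change of -0.28 ± 0.07 that was below 0 in all 4 pools (-0.18 to -0.43) and -0.24 without control vehicle 1 and 3. With robust array weights it passed, at -0.30 (adjusted p = 0.0243), in a fit that called 0.967% of all genes. Galc, at 0.28 ± 0.10, and Ctss, at 0.27 ± 0.11, were the members higher in knockout hearts. Without control vehicle 1 and 3, 2 members were lower and 3 higher at an unadjusted p under 0.05, beside 3.2% and 4.27% of all genes. With the transcript length score as a term, 1 was lower and 5 higher, beside 4.5% and 5.13% of all genes. Averaged over genotypes, the rapamycin effect called 0.125% of all genes and no member. At an unadjusted p under 0.05, 2 members were higher, Ids (0.21 ± 0.06, adjusted p = 0.199) and Tfeb (0.18 ± 0.07, adjusted p = 0.464), beside 4.6% of all genes. Naglu, Smpd1 and Man2b1 were lower at that level, at -0.42, -0.26 and -0.20, beside 4.64% of all genes. Without control vehicle 1 and 3 these were -0.30, -0.14 and -0.21, and Ids and Tfeb were at 0.22 and 0.23.

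Changes were also set out by the CACGTG core. Under vehicle, the 11 with the core had a median knockout change of -0.11, with 10 below 0, and the 20 without it -0.07, with 12 below 0. For rapamycin in knockout hearts the medians were 0.13 and -0.03, with 4 of 11 and 11 of 20 below 0. For rapamycin in control hearts they were -0.13 and -0.03, with 10 of 11 and 12 of 20 below 0. Knockout against control under rapamycin gave -0.01 and 0.05, with 6 of 11 and 8 of 20 below 0. The interaction was above 0 in all 11 with the core (median 0.18), and below 0 in 7 of the 20 without it (median 0.10). The knockout change under vehicle, the rapamycin change in control hearts and the interaction all use the control vehicle hearts. Their counts are therefore not separate observations. The split is not given here without the control vehicle libraries that lay far from all others. Correlations (r) of members with the core with the score for long against short transcripts ran from -0.91 (Ctsf) to 0.49 (Gaa). The part of that score in the split was not tested. The splits by the core are descriptions of a few genes with no test.

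Across the 20 libraries, the members' values varied together with the score for long against short transcripts. The median deviation of the 35 members from their own means ran from -0.26 in knockout vehicle 3 to 0.21 in knockout vehicle 5, both in the same group. It was 0.06 ± 0.08 in the control vehicle hearts, -0.05 ± 0.17 in the knockout vehicle, -0.03 ± 0.09 in the control rapamycin and 0.00 ± 0.09 in the knockout rapamycin hearts (SD, n = 5), so the spread within the knockout vehicle group exceeded the distance between groups. Set against the score for long against short transcripts, the member median had r = -0.79 and rho = -0.86 over 20 libraries, which share their normalization. Without control vehicle 1 and 3, r was -0.82 over 18. Each group and pool is too small for a value of its own. Of the members 27 had a negative r with this score, beside 46.0% of all genes. Smpd1 had the lowest, -0.93, and Idua, the iduronidase of heparan and dermatan sulfate breakdown, the highest, 0.85. The members' own transcripts were of mixed length, with 5 shorter than 1888 bases and 5 longer than 4342, the limits of the score's short and long genes.

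**Figure D4:**
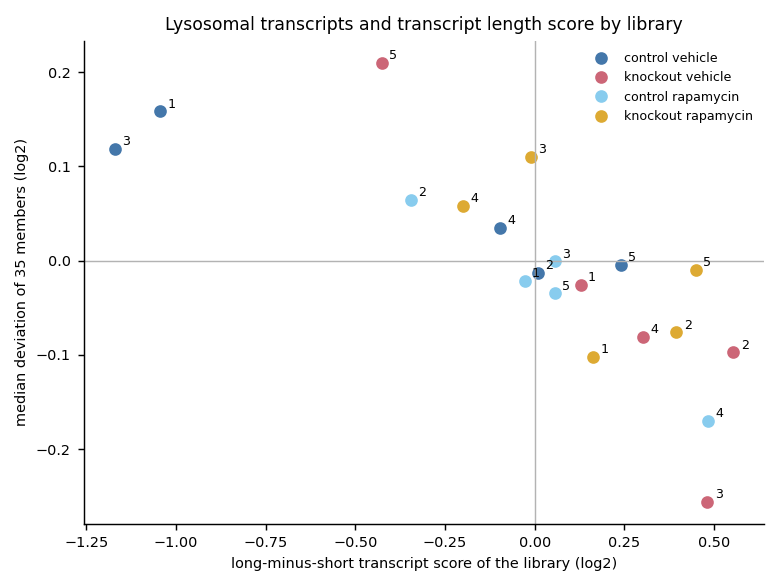
Median log2 deviation of the 35 members in each library against the library's score for long against short transcripts (log2). Points are libraries, coloured by group and numbered by replicate. Control vehicle 1 and 3 lie at the left, at -1.04 and -1.17, and knockout vehicle 3 and 5 at the bottom and the top.

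With that score as a term in the fit, the median knockout change under vehicle was -0.02 in place of -0.11, and 8 members were lower and 4 higher at an unadjusted p under 0.05, beside 3.37% and 6.29% of all genes in that fit. The estimate was -0.07 in place of -0.41 for Smpd1, -0.14 in place of -0.47 for Ctsh and -0.16 in place of -0.39 for Ctsf. It was -0.14 for Mcoln1 and Ctsa, in place of -0.39 and -0.30. Naglu stood at -0.47, Tfeb at -0.20 and Neu1 at -0.19. Hexa was at 0.25 in place of -0.17. No member was called in that comparison in that fit. The score was computed from the same expression values. It ran from -1.17 to 0.24 in the control vehicle and from -0.43 to 0.55 in the knockout vehicle hearts. A genotype difference and a difference in the score therefore cannot be told apart by this fit.

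Cell markers differed between the groups as well. Fibroblast markers summed to 73144 to 93948 in control and 94292 to 151968 in knockout hearts under rapamycin. Gsn, the largest of them, averaged 50032 and 71092 there, beside summed means of 85651 and 116234. The changes of the 10 markers ran from -0.06 for Col3a1 to 0.55 for Pdgfra, with Col1a1 at 0.04. The 4 erythroid markers in the table summed to 60591 to 155063 in control and 13533 to 46552 in knockout hearts under vehicle. The 4 atrial markers summed to 1358 to 6054 in control and 4141 to 61871 in knockout hearts under vehicle. Their part in the member values was not tested.

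On 6 further lists of lysosomal genes, none was called in any of the 7 comparisons (limma). Their counts under vehicle stand beside the same background as the members, 12.1% of all genes lower and 19.8% higher at an unadjusted p under 0.05, with a median of 0.07. For knockout against control under vehicle without control vehicle 1 and 3, none of the lists had more than 1 gene at that level. In that fit 2.47% of all genes were lower and 4.28% higher. Of 18 subunits of the V-ATPase, the pump that acidifies lysosomes, 3 were lower and 2 higher in knockout hearts under vehicle at an unadjusted p under 0.05. Atp6v0d1, a stalk subunit of that pump, averaged 1828 in control and 1315 in knockout hearts (-0.47 ± 0.15, adjusted p = 0.0966). Atp6ap2, an accessory subunit also known as the prorenin receptor, averaged 471 and 575 (0.29 ± 0.10, adjusted p = 0.106). They were at -0.26 and 0.20 without control vehicle 1 and 3. The shares, 3 and 2 of 18, are near the background.

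Of 10 genes that tag or deliver hydrolases, 1 was lower and 2 higher at that level in the same comparison. Igf2r, the large mannose 6-phosphate receptor that carries hydrolases to lysosomes, averaged 3542 in control and 5588 in knockout hearts (0.74 ± 0.27, adjusted p = 0.105). Gga2, an adaptor for that receptor, averaged 1731 and 1280 (-0.43 ± 0.15, adjusted p = 0.0993). Leaving out control vehicle 1 and 3 put them at 0.24 and -0.25. The counts of 1 and 2 of 10 are near the background, and the median of the list was 0.11. Sumf1, which activates the sulfatases, Ids and Sgsh among them, was the gene of this list with the smallest p for rapamycin averaged over genotypes (0.24 ± 0.06, adjusted p = 0.189, and 0.20 without control vehicle 1 and 3). Its means were 466 and 553 in control hearts and 497 and 578 in knockout hearts, under vehicle and rapamycin.

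Of 18 genes of the mTORC1 platform on the lysosome, 1 was lower and 5 higher in knockout hearts under vehicle at an unadjusted p under 0.05. Over all genes these shares were 12.1% lower and 19.8% higher. Rragd, a Rag GTPase, averaged 3399 in control and 4387 in knockout hearts (0.39 ± 0.14, adjusted p = 0.108, and 0.22 without control vehicle 1 and 3). The median of the list was -0.05. The relatives of Tfeb, Tfe3 and Mitf, had changes of 0.18 ± 0.16 and -0.14 ± 0.11 in that comparison, and Tfec, the third, was under the filter on low values. Of 29 other lysosomal proteins 6 were lower and 0 higher, beside 12.1% and 19.8% of all genes. Their median was -0.07, beside 0.07 for all genes. Lgmn, the asparaginyl endopeptidase that processes cathepsins, averaged 3067 and 2433 (-0.35 ± 0.12, adjusted p = 0.0974, and -0.29 without control vehicle 1 and 3). Of the 2 cathepsin inhibitors, Cst3, the secreted cystatin C, averaged 29480.4 and 20628 (-0.52 ± 0.24, adjusted p = 0.145), and Cstb, the intracellular one, 494 and 353 (-0.45 ± 0.22, adjusted p = 0.166). These were -0.18 and -0.08 without control vehicle 1 and 3.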

How the data were processed

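Gene expression in 20 mouse ventricle libraries was taken from 1 table of the whole series. Per the submitters' processing notes, Picard 1.64, SAMtools, RSEM and the build mm9 were used. The aligner is not named in these notes. Each deposited value is a normalized signal of 1 gene in 1 library, which the authors scaled so that the upper quartile of values above 0 was 996.6 to 1000 in every library. They are not counts. Low values were whole multiples of 1 step in 86.9% to 89.0% of cases (within 0.05), too few to recover reads, and the steps gave the estimated depth (median 15.2 M).

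Values were analysed as log2(value + 1), which understates changes of low genes. Genes with a value of at least 10 in at least 5 libraries were tested. The 4 groups entered 1 limma model (limma 3.58.1, R 4.3.3, intensity trend) with 7 contrasts, and p-values were adjusted by Benjamini-Hochberg over all 13548 genes at a threshold of 0.05. The model was tested on simulated data. Acsl1 was compared by an exact permutation test. Transcript lengths came from GENCODE, from protein-coding transcripts paired with a RefSeq accession where there were any. Promoters came from RefSeq annotation of GRCm38.p6. Neither was used for coordinates of the mm9 files. The length score of a library is the median deviation of genes longer than 4342 bases minus that of genes shorter than 1888 bases.

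The members were matched by symbol, with no measured value in the rule, but their list and the related lists were drawn up with earlier results of these data known. Values in every library are given for the 12 members with the smallest unadjusted p in any comparison, none having passed the threshold, and of each related list at most 2 genes per comparison are named. Of the genes that this rule picks, 1 is not reported here. Replicate numbers did not pair the libraries: the correlations of same-numbered deviations ran from -0.51 to 0.27. Alternatives were other pseudocounts, filters and normalizations, a pool term, a replicate block, only the groups compared, robust array weights, the length score as a term, the fit without control vehicle 1 and 3, and leaving out each library.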

Additional observations from a re-analysis of the deposited data

Results flagged for a closer look

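In 8 of 144 sets of 5 libraries, 1 library lay far from the other 4 of its group, with a gap above 0.71 of the group's range. Chance alone marks about 1 in 20 such sets. Scarb2 was highest in control vehicle 3, at 2601 with the others at 2246 to 2337. Sgsh was highest in control vehicle 5, at 278 with the others at 174 to 196. Ctsl, cathepsin L, was lowest in knockout vehicle 4, at 4062 with the others at 4847 to 4964, and Ctss was highest in that same library, at 978 with the others at 455 to 587. Ctsd was lowest in control rapamycin 4, at 36545 with the others at 43060 to 44432. Neu1 was lowest in that library too, at 569 with the others at 701 to 721. Naglu was highest in control rapamycin 1, at 512 with the others at 318 to 350.4. Ctsk was highest in knockout rapamycin 5, at 153 with the others at 73.9 to 89.3.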

How the results depend on the processing

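The count of members called in the knockout comparison under vehicle was 0 and ran from 0 to 9 when single libraries were left out (0 in 7 of 10 such fits). In the fits with members called, the count over all genes rose as well, as given above, and the cause was not tested. In the other 6 comparisons, leaving out a library gave 0 in every fit. Robust array weights gave 1 member called for rapamycin in knockout hearts (Ids) and 1 for the averaged genotype effect (Neu1), in fits that called 0.428% and 0.967% of all genes. The length score as a term gave 1 for rapamycin in knockout hearts (Ids) and 2 for the averaged rapamycin effect (Hexa and Ids), in fits that called 1.72% and 2.37% of all genes, and the cause was not tested in either case. All other alternatives gave 0 members called in each comparison they could be run for. With the replicate number as a block, 0 members were called in every comparison; each library was closest to its own number in 0 to 2 of 5 cases, so no pairing was used. Median member changes moved by up to the SD of the member median between libraries, 0.11, but that SD is as large as most of the medians themselves. Under vehicle the median of -0.11 ran from -0.16 to -0.02 over the alternatives other than leaving out a library. Leaving out single libraries turned the sign of some medians. For rapamycin in knockout hearts the median of 0.09 then ran from -0.01 to 0.14. For knockout against control under rapamycin the median of 0.02 ran from -0.03 to 0.04. The fit of only the groups compared gives no value for the interaction or the averaged effects. With 5 libraries a group, the median 95% interval of a member's change reached 0.24 log2 units to each side in the simple comparisons. It reached 0.17 for the averaged effects and 0.35 for the interaction, so smaller changes could often not be told from 0. The depth of low genes such as Gla limits their changes further.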
